A study of Homo sapiens with 16 samples.

Results

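CR2, FCER2, SLAMF1, NOTCH2, EBI3, RUNX3, BATF, HES1, DTX1 and RBPJ encode proteins of the EBNA2, RBPJ and Notch system in B cells, and their mRNA levels were followed across the 4 groups of the study. These 10 genes were chosen by name, as RBPJ itself, a Notch receptor and genes described as direct targets of EBNA2 or of Notch, out of 58051 gene identifiers in the table. The choice was made with earlier results of these data known. Each symbol matched 1 identifier. The samples were 16 RNA libraries of P493-6, a single immortalised human B cell line carrying an Epstein-Barr virus genome, so all groups share 1 genetic background.

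Cells were grown in DMEM with 10% FBS. In the high MYC groups no additive was given, whereas the medium MYC groups received doxycycline at 0.1 µg/mL together with β-estradiol at 1 µM, starting 24 h before treatment. Each MYC level was then split into 4 control libraries, treated with DMSO, and 4 inhibitor libraries, treated for 24 h with 100 nM IMP1088, which blocks the N-myristoyltransferases NMT1 and NMT2. MYC level, doxycycline and estradiol changed together, so their effects cannot be told apart, and "medium against high MYC" below stands for all of them at once. The labels do not say whether replicates were separate cultures, so the p-values measure only the spread between these libraries.

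EBNA2 is a transcription factor of Epstein-Barr virus that does not bind DNA by itself. It is brought to DNA by the cellular protein RBPJ, the same protein through which an activated Notch receptor reaches its target genes, and B cell factors such as EBF1 and PU.1 bind near many of these sites. In P493-6 cells, EBNA2 is made as a fusion with the hormone-binding part of the estrogen receptor, which makes it active only when estrogen is present, while a MYC transgene is shut off by doxycycline. Among the genes EBNA2 is known to induce in B cells are the surface receptors CR2 and FCER2. The transcript of EBNA2 itself is viral and was not analysed here.

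The RBPJ core motif, TGGGAA, was searched on both strands in the 250 bases before each transcript start listed for the genes in RefSeq (build GRCh38.p14), with 15 windows for 9 of the 10 genes. DTX1 was not in that table. Of these windows, 7 held the motif, and they belonged to 6 of the 9 genes (FCER2, RUNX3, HES1, BATF, RBPJ and EBI3). The motif is short: 20.8% of 35116 windows of the same length, and 24.6% of 27305 gene symbols, held it. The longer form GTGGGAA, which contains the core, was found in 4 of the 15 windows and 4 of the 9 genes, against 5.43% of all windows and 6.69% of symbols. The 3 windows printed here are those of a Notch target (HES1), a surface receptor (FCER2) and a cytokine subunit (EBI3) that hold the longer form. They are written 5′ to 3′ on the strand of the gene, with the core motif or its reverse complement TTCCCA in capitals.
HES1 (chr3:194135898-194136147, plus strand): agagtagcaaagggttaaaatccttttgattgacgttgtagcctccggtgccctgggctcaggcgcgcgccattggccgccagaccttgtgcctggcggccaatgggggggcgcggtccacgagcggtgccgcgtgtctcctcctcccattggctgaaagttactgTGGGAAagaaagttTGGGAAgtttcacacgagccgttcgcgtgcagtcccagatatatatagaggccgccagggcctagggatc
FCER2 (chr19:7702132-7702381, minus strand): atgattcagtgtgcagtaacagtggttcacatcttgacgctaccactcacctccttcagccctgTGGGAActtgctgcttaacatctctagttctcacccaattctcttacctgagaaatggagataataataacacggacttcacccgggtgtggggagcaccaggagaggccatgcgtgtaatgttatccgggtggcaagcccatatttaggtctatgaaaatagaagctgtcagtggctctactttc
EBI3 (chr19:4229273-4229522, plus strand): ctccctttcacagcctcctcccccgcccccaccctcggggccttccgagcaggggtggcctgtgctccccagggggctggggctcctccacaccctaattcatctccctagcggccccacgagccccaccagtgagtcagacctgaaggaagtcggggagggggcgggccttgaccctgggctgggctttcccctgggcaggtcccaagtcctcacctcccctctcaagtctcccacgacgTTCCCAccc

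In HES1, the textbook target of Notch, a pair of matches lay 84 to 79 and 70 to 65 bases before the start, both on the strand of the gene and 14 bases apart. FCER2 has a listed start farther upstream, with a match 186 to 181 bases before it, and a second one, with a match 202 to 197 bases before it. The EBI3 match lay on the other strand, 9 to 4 bases before the RefSeq start. GENCODE release 29, used for the gene positions below, starts some genes inside these windows, among them EBI3 at 4229498 and CR2 at 207454230. By that annotation the EBI3 match lies within the gene. RUNX3 and BATF held the core alone, and RBPJ held matches at 1 of its 5 listed starts. No match was found in the windows of CR2, SLAMF1 and NOTCH2, which says only that these letters are not in those windows. GAGGAA, a core bound by PU.1, was found in 3 of the 15 windows and 2 of the 9 genes (23.6% of all windows, 27.3% of symbols). CCCNNGGG, the form of site bound by EBF1, was in 4 windows and 4 genes (17.1% and 19.8%). A match describes the sequence and is not evidence of binding.

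**Figure D1:**
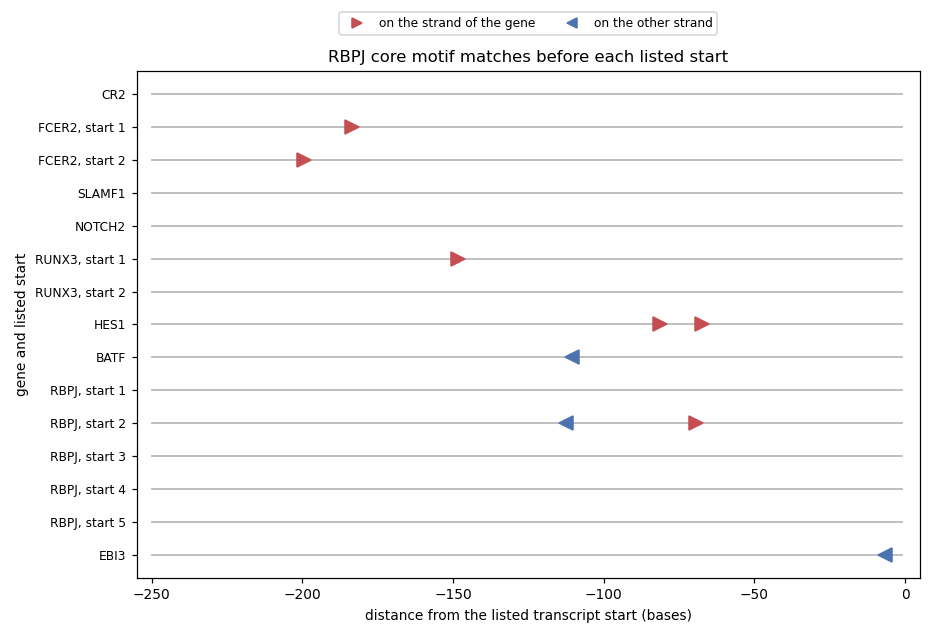
Matches to TGGGAA in the 250 bases before each RefSeq start of 9 genes. The x axis gives bases from the start, each line is 1 window, and triangles point along the strand of the match; HES1 and the second listed start of RBPJ have a pair of matches, and 8 of 15 lines have none.

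Values are normalized counts, which are reads scaled for library depth but not for gene length, so levels are compared between libraries and not between genes. Libraries held 8755296 to 13858534 reads and correlations across genes between replicates ran from 0.985 to 0.990. The 6 B cell markers MS4A1, CD79A, CD79B, PAX5, CD22 and EBF1 were read in every library. Their summed level was 24142 to 24327 in high MYC controls, 19663 to 20581 with inhibitor, 39293 to 40005 in medium MYC controls and 34710.3 to 36002 with inhibitor. The sum rose mostly through MS4A1, from a mean of 11652 to 22639 in controls, and CD22, from 2023 to 4923, while CD79A went from 3096 to 2854 and CD79B from 1574 to 1464. The 3 plasma cell markers moved the other way, summing to 7076 to 8621, 8862 to 8982, 825 to 951 and 1295 to 1412 in the same order, mostly through JCHAIN. The part of these shifts in the results below was not tested. Summed T cell markers stayed under 95.4, mostly CD3E and CD3G. Monocyte markers stayed under 18.9, and the NK cell marker NCR1 had 0 reads throughout. The 4 fibroblast and epithelial markers summed to 64.8 to 94.6 at high and 177 to 238 at medium MYC, through COL1A1, while the epithelial marker EPCAM went the other way, from a mean of 62.1 to 13.1 in controls and from 70.6 to 18.2 with inhibitor. MYC averaged 31649 ± 2130 in high MYC controls and 959 ± 48.7 in medium MYC controls (SD, n = 4), in the direction of the labels. With inhibitor it averaged 47542 ± 505 at high and 1382 ± 51.2 at medium MYC, above the controls without overlap at each level, and its part in the inhibitor comparisons was not tested. Whether a difference reflects fewer cells of a state or less RNA per cell cannot be told apart in bulk RNA.

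Medium MYC went with higher levels of 8 of the 10 genes among controls. FCER2, SLAMF1, EBI3, RUNX3, BATF and HES1 were higher by between 2.20 (FCER2) and 5.16 (EBI3) on the fitted log2 scale. CR2 had no reads at high MYC, and its change is given as a bound, at least 4.76 on the log2 scale. The receptor NOTCH2 differed by only 0.28, and RBPJ and DTX1 did not pass the test. A gene was called at a limma adjusted p under 0.05 over 13765 genes whose mean was 10 or more, on log2 of the normalized count plus 1. By this rule 76.2% of all tested genes were called between medium and high MYC controls, 38.9% higher and 37.3% lower. The share of the 10 genes that was called is thus near that of all genes, and their counts differ from it in direction, with 8 higher and 0 lower. Their median change was 2.59, against 0.02 over all tested genes. The 10 genes were chosen with earlier results of these data known, so their direction and median are no independent evidence. CR2 passed the filter only through the medium MYC libraries. In the 8 called genes the 4 libraries of each group did not overlap, as held for 69.2% of all tested genes.

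**Figure D2:**
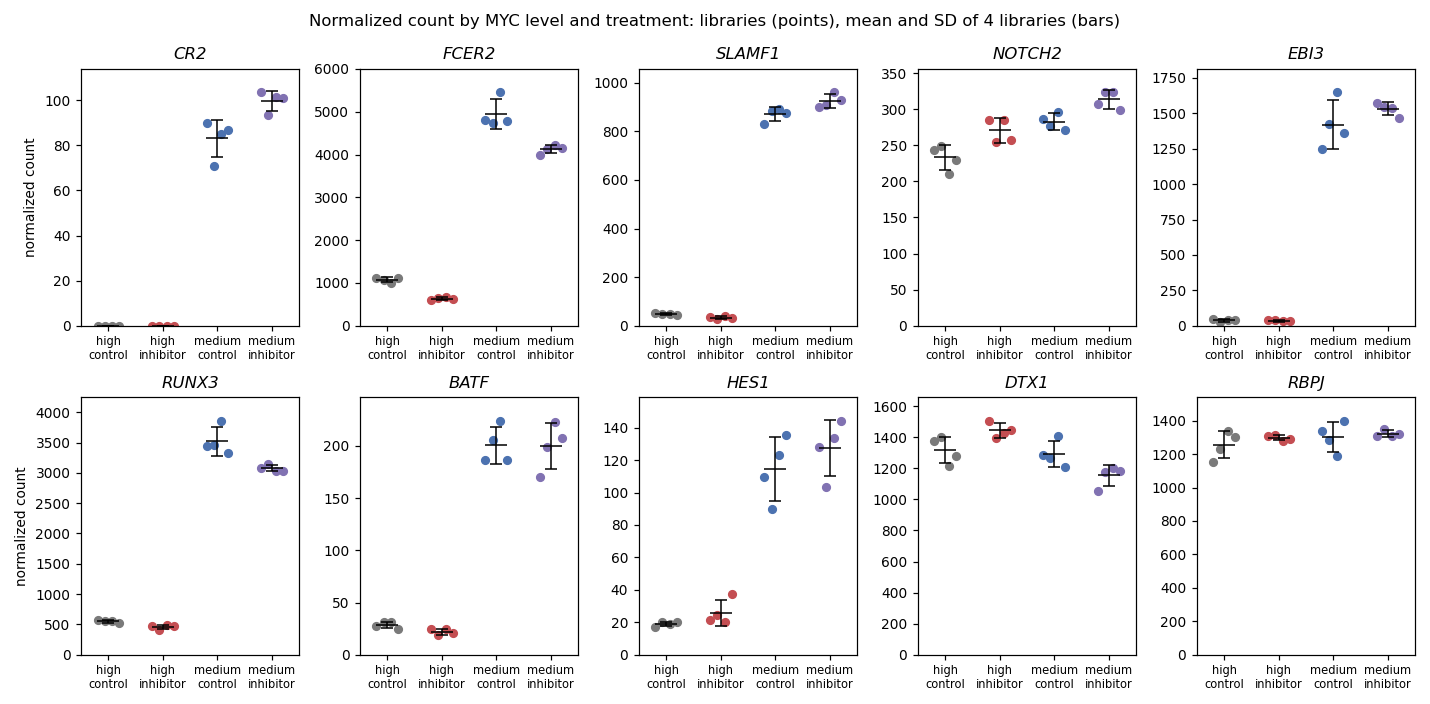
Normalized counts of the 10 genes in the 4 groups, with 1 point per library, a horizontal line at the mean and bars for the SD (n = 4), and with the y axis starting at 0. CR2, FCER2, SLAMF1, EBI3, RUNX3, BATF and HES1 are high in both medium MYC groups, while RBPJ lies between 1155 and 1399 in all 16 libraries.

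CR2 (ENSG00000117322, chromosome 1, 207454230 to 207489895 in GENCODE release 29 on GRCh38) encodes complement receptor CD21, the receptor through which the virus enters B cells. It had 0 reads in all 8 high MYC libraries. In medium MYC controls the normalized counts of replicates 1 to 4 were 89.7, 71.1, 84.9 and 87.0, with a mean of 83.2 ± 8.30 (SD, n = 4), and with inhibitor they were 103.7, 93.4, 101.3 and 100.8, with a mean of 99.8 ± 4.46. The gene was thus read in every medium MYC library and in no high MYC library. A floor of 3 reads per library puts CR2 at least 27.1-fold higher at medium MYC in the controls and at least 32.5-fold higher with inhibitor, and these floors cover counting error only. A fitted change of CR2 depends on the pseudocount: in controls it was 6.39 with 1, 3.22 with 10 and 9.70 with 0.1, and 9.39 with edgeR.

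FCER2 (ENSG00000104921, chromosome 19, 7688758 to 7702146) encodes CD23, the low-affinity receptor for IgE on B cells. Its normalized counts in high MYC controls were 1115, 1064, 1001 and 1119, with a mean of 1074 ± 55.0, and in high MYC inhibitor libraries 597, 639, 675 and 631, with a mean of 635.5 ± 32.3. Medium MYC controls had 4798, 4746, 5463 and 4778 (4946 ± 345), and medium MYC inhibitor libraries 3995, 4125.5, 4218 and 4154 (4123 ± 93.7). All 4 groups were separate, in the rising order high inhibitor, high control, medium inhibitor and medium control. Medium against high MYC gave a log2 change of 2.20 in controls (SE 0.05, limma adjusted p 1.61e-20) and 2.70 with inhibitor (adjusted p 5.40e-22).

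SLAMF1 (ENSG00000117090, chromosome 1, 160608100 to 160647295) encodes CD150, a receptor that binds to itself on neighbouring lymphocytes. High MYC controls had normalized counts of 53.5, 47.2, 47.5 and 45.8 (48.5 ± 3.40), and high MYC inhibitor libraries 36.6, 26.6, 38.4 and 31.2 (33.2 ± 5.34). At medium MYC the controls had 828, 884, 894 and 877 (870.6 ± 29.1), and the inhibitor libraries 898, 909.9, 962 and 929.7 (925 ± 27.9). The groups did not overlap, and here the inhibitor libraries were the highest at medium MYC but the lowest at high MYC. The log2 change from high to medium MYC was 4.14 in controls (SE 0.09, limma adjusted p 2.60e-20) and 4.77 with inhibitor (adjusted p 2.51e-21).

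NOTCH2 (ENSG00000134250, chromosome 1, 119911553 to 120069626) encodes the Notch receptor that marginal zone B cells need. Normalized counts were 244, 249, 211 and 230.2 in high MYC controls (233.6 ± 17.2) and 285, 254, 285 and 258 in high MYC inhibitor libraries (270.5 ± 17.0). Medium MYC controls had 287, 277, 297 and 272 (282.9 ± 11.1), and medium MYC inhibitor libraries 308, 324, 324 and 298 (313 ± 12.6). The means rose in this order, and high MYC inhibitor and medium MYC control libraries were the only groups to overlap. The change from high to medium MYC was small, at 0.28 in controls (SE 0.06, limma adjusted p 0.000523) and 0.21 with inhibitor (adjusted p 0.00483). NOTCH2NLA, a near-identical partial copy on chromosome 1, averaged 307 over the 16 libraries, so the split of reads between the genes is uncertain and the NOTCH2 values carry that doubt.

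EBI3 (ENSG00000105246, chromosome 19, 4229498 to 4237531) encodes the shared subunit of the cytokines interleukin-27 and interleukin-35. In high MYC controls the normalized counts were 50.5, 28.1, 37.5 and 41.4 (39.4 ± 9.27), and with inhibitor 39.8, 39.9, 30.5 and 31.2 (35.4 ± 5.20), so these groups overlapped. In medium MYC controls they were 1246, 1424, 1651 and 1361 (1421 ± 170.0), and with inhibitor 1574, 1544, 1541 and 1465 (1531 ± 46.3), again overlapping. Between the MYC levels there was no overlap, and the log2 change was 5.16 in controls (SE 0.13, limma adjusted p 2.87e-19) and 5.41 with inhibitor (adjusted p 1.24e-19). Of the genes of its partner chains, IL27 had at most 4 reads in any library. IL12B, which is on the partner list but encodes no chain of these cytokines, had at most 8 reads. IL12A averaged 22.9 in high and 16.7 in medium MYC controls, without a call (log2 -0.43, adjusted p 0.140), and was called lower at medium MYC with inhibitor (-0.92, adjusted p 0.00328). IL12A overlaps exons of an antisense gene, so its values are uncertain.

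RUNX3 (ENSG00000020633, chromosome 1, 24899511 to 24965121) encodes a Runt-family transcription factor that EBNA2 is known to induce and that represses RUNX1 in virus-transformed B cells. High MYC controls had normalized counts of 578, 554, 553 and 515 (549.9 ± 25.8), and high MYC inhibitor libraries 467, 405, 489 and 467 (456.7 ± 36.1). Medium MYC controls had 3436, 3454, 3858 and 3325 (3518 ± 233), and medium MYC inhibitor libraries 3083, 3153, 3035 and 3038 (3077 ± 55.0). As for FCER2, all 4 groups were separate and in the same order. RUNX3 was higher at medium MYC by 2.67 on the log2 scale in controls (SE 0.05, limma adjusted p 4.58e-21) and by 2.75 with inhibitor. RUNX1 was lower, falling from 918 ± 47.1 to 526 ± 29.8 in controls (log2 -0.80, adjusted p 3.34e-13), and CBFB, the partner subunit of RUNX proteins, fell from 1110.0 ± 72.1 to 824 ± 96.2 (log2 -0.44, adjusted p 2.93e-06).

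BATF (ENSG00000156127, chromosome 14, 75522425 to 75547015) encodes an AP-1 family factor that pairs with JUN proteins and binds DNA together with IRF4 or IRF8. Its normalized counts were 27.1, 31.4, 30.9 and 24.6 in high MYC controls (28.5 ± 3.25) and 24.7, 18.9, 24.4 and 20.8 with inhibitor (22.2 ± 2.86). They were 187, 205, 224 and 186 in medium MYC controls (200.6 ± 18.0) and 170.1, 199, 222 and 208 with inhibitor (199.7 ± 22.1). The MYC levels did not overlap, while control and inhibitor libraries overlapped at each level. The log2 change from high to medium MYC was 2.77 in controls (SE 0.12, limma adjusted p 8.60e-15) and 3.11 with inhibitor. Its partners rose in the same comparison of controls, IRF4 by 2.39, IRF8 by 0.87, JUN by 2.08 and JUNB by 1.84, whereas JUND was not called (0.19, adjusted p 0.127). With inhibitor JUND was called higher at medium MYC (0.36, adjusted p 0.00595). JUNB overlaps an exon of HOOK2 on the other strand, and because no source says whether counting used strand its value is uncertain.

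HES1 (ENSG00000114315, chromosome 3, 194136145 to 194138732) encodes a transcriptional repressor that Notch induces through RBPJ. High MYC controls had normalized counts of 17.3, 20.2, 18.8 and 20.1 (19.1 ± 1.36), and high MYC inhibitor libraries 21.5, 24.4, 20.1 and 37.4 (25.9 ± 7.92), with replicate 4 above the others. Medium MYC controls had 109.5, 89.9, 123 and 135 (114.6 ± 19.5), and medium MYC inhibitor libraries 128, 103, 134 and 144 (127 ± 17.3). All medium MYC libraries lay above all high MYC libraries, and treatments overlapped within each level. HES1 was higher at medium MYC by 2.51 in controls (SE 0.17, limma adjusted p 1.80e-11) and by 2.29 with inhibitor (adjusted p 8.37e-11).

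DTX1 (ENSG00000135144, chromosome 12, 113056709 to 113098028) encodes Deltex, a ubiquitin ligase that binds the inner part of Notch receptors. Its normalized counts were 1379, 1399, 1216 and 1277 in high MYC controls (1318 ± 86.3) and 1506, 1394, 1426 and 1448 with inhibitor (1443 ± 46.9). Medium MYC controls had 1287, 1267, 1405 and 1209 (1292 ± 82.6), and medium MYC inhibitor libraries 1053, 1179, 1201 and 1183 (1154 ± 67.9). The control groups overlapped (log2 -0.03, 95% interval -0.14 to 0.08, limma adjusted p 0.626). With inhibitor, all medium MYC libraries were below all high MYC libraries (log2 -0.32, SE 0.05, adjusted p 7.21e-06), the only fall of the 10 genes with MYC level.

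RBPJ (ENSG00000168214, chromosome 4, 26163455 to 26435131) encodes the DNA-binding protein of the system. High MYC libraries had normalized counts of 1155, 1233, 1339.9 and 1302 as controls (1258 ± 81.2) and 1308, 1313, 1281 and 1288 with inhibitor (1297 ± 15.4). Medium MYC libraries had 1338, 1283, 1189 and 1399 as controls (1303 ± 89.1) and 1306, 1353, 1308 and 1322 with inhibitor (1322 ± 21.8). All groups overlapped, and RBPJ was not called between MYC levels in controls (log2 0.05, 95% interval -0.05 to 0.15, limma adjusted p 0.325) or with inhibitor (0.03, interval -0.07 to 0.12, adjusted p 0.601). Its processed pseudogenes RBPJP2 and RBPJP7 were at 0, and RBPJP5 and RBPJP6 were at or under 1.11 in every library.

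The 8 libraries with inhibitor gave the comparison of MYC levels again in libraries not used for the controls. Only the log2 changes are separate, since the SEs and calls use the spread of all 16 libraries. Here 8 of the 10 genes rose and DTX1 fell, with groups free of overlap for these 9 and a median change of 2.72. Of all tested genes, 77.5% were called, 39.7% higher and 37.8% lower, 72.6% had no overlap between the groups, and the median change was 0.02. CR2 at its bound left both medians of the 10 genes as they were. The 8 genes called higher in controls were also those called higher with inhibitor.

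**Figure D3:**
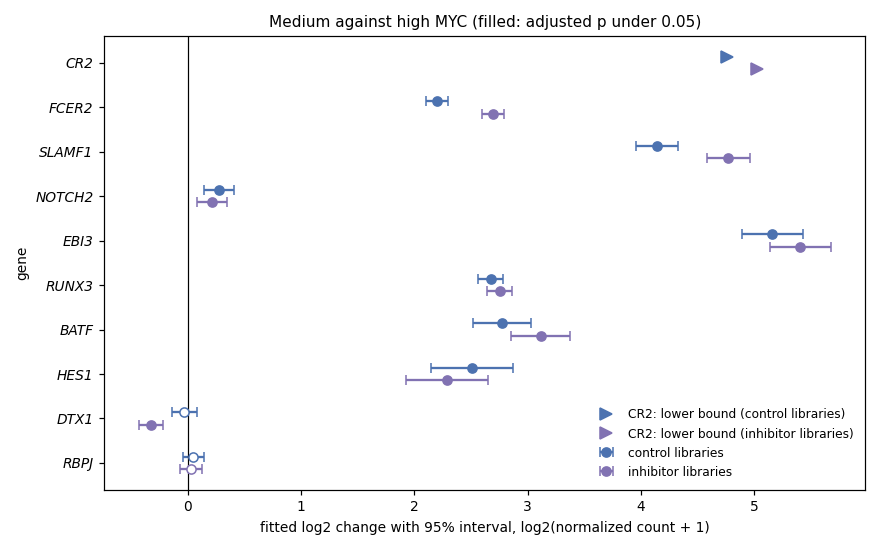
Fitted log2 change of each gene from high to medium MYC, in control and in inhibitor libraries (4 against 4), with 95% intervals; filled points have an adjusted p under 0.05, and the CR2 triangles are lower bounds from a floor of 3 reads per library. The points of RBPJ are near 0, and DTX1 lies at -0.03 in controls and at -0.32 with inhibitor.

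At high MYC, where no estradiol was added, FCER2, SLAMF1, RUNX3 and BATF fell with IMP1088 and NOTCH2 rose. FCER2 fell most, to 0.592 of the control level (log2 -0.76, SE 0.05, limma adjusted p 1.00e-10), followed by SLAMF1 (-0.54, SE 0.09, adjusted p 9.03e-05) and RUNX3 (-0.27, SE 0.05, adjusted p 0.000495). In each of these 3 genes all 4 inhibitor libraries were below all controls. BATF differed by -0.35 with overlapping groups (adjusted p 0.0427), a call missed in 17 of 29 alternative settings. Among these were edgeR (adjusted p 0.219) and DESeq2 (0.292) on the reads. Over all 29 settings the adjusted p of BATF ran from 0.0229 to 0.292. NOTCH2 was 0.21 higher (SE 0.06, adjusted p 0.0172). That call was missed without high MYC control replicate 3 (adjusted p 0.0657), without high MYC inhibitor replicate 1 (0.0591) or 3 (0.0583), and with only the compared groups in the fit (0.0541).

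The summed B cell markers were also lower with inhibitor at both MYC levels, and their part in these falls was not tested.

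The other 5 genes were not called at high MYC. HES1 differed by 0.38 (95% interval 0.02 to 0.74, limma adjusted p 0.118), DTX1 by 0.13 (0.03 to 0.24, adjusted p 0.0616), EBI3 by -0.13 (-0.40 to 0.14, adjusted p 0.50) and RBPJ by 0.05 (-0.05 to 0.14, adjusted p 0.499), and CR2 had no reads. DTX1 passed the threshold in 8 of 29 alternative settings, among them quantile normalization (adjusted p 0.0167) and edgeR (0.0454). The 5 calls among 10 genes stood beside 26.8% of all tested genes, with 10.5% higher and 16.3% lower. With quantile normalization 1727 of all tested genes were higher and 1770.0 lower, in place of 1442 and 2247, and the calls among the 10 genes were 2 higher and 4 lower in place of 1 and 4. With equal library totals they were 2 higher and 3 lower. Groups were free of overlap for 4 of the 10 genes and for 26.7% of all tested genes, and the median change was -0.07 for the 10 genes and -0.02 for all. CR2, without reads in either group, could be neither called nor free of overlap, and it enters the median of the 10 genes as a change of 0.

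At medium MYC FCER2, RUNX3 and DTX1 fell with the inhibitor, and no gene of the 10 was called higher. FCER2 fell to 0.835 of control (log2 -0.26, SE 0.05, limma adjusted p 0.000184), RUNX3 to 0.876 (-0.19, SE 0.05, adjusted p 0.00861) and DTX1 to 0.893 (-0.16, SE 0.05, adjusted p 0.0226), each without overlap. The DTX1 call was missed without medium MYC control replicate 3 (adjusted p 0.0871) or medium MYC inhibitor replicate 1 (0.0992), and also with equal library totals (0.0550), quantile normalization (0.0806) or no mean trend in the fit (0.0610). These 3 calls stood beside 26.3% of all tested genes, 11.7% higher and 14.6% lower. Over all tested genes the balance turned with the scaling, from 1606 higher and 2012 lower to 1962 and 1659 with equal library totals and to 1963 and 1876 with quantile normalization. With equal library totals the split among the 10 genes was 1 higher and 2 lower.

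CR2, SLAMF1 and NOTCH2 had all 4 medium MYC inhibitor libraries above all 4 controls without being called. Their log2 differences were 0.26 (limma adjusted p 0.438), 0.09 (adjusted p 0.524) and 0.15 (adjusted p 0.0988). CR2 was called without the mean trend (adjusted p 0.00426), and its adjusted p over the alternatives ran from 0.00426 to 0.723. NOTCH2 was called with equal library totals (0.0438). In all, 6 of the 10 genes had groups free of overlap at medium MYC, against 27.9% of all tested genes. HES1 differed by 0.16 (adjusted p 0.560), EBI3 by 0.11 (0.563), RBPJ by 0.02 (0.755) and BATF by -0.01 (0.971). The median change was 0.06, and -0.01 over all tested genes.

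The response to IMP1088 differed between MYC levels for FCER2, SLAMF1 and DTX1. FCER2 fell more at high than at medium MYC, by -0.50 on the log2 scale (SE 0.07, limma adjusted p 2.37e-05). SLAMF1 fell at high MYC only, and the difference in response was -0.63 (SE 0.13, adjusted p 0.00228). For DTX1 the difference was 0.30 (SE 0.07, adjusted p 0.0115), from 0.13 at high and -0.16 at medium MYC. The other 7 genes were not called, among them RUNX3 (-0.08, 95% interval -0.23 to 0.07, adjusted p 0.602) and BATF (-0.34, interval -0.71 to 0.03, adjusted p 0.276). Of all tested genes 8.63% were called, 3.31% with a positive and 5.33% with a negative difference. The median was -0.16 for the 10 genes and -0.02 for all. CR2 is among the uncalled genes and in this median, but it had no reads at high MYC. Its value (-0.26) is only its change at medium MYC with the sign turned. The differences in response use the libraries of both treatment comparisons and are no separate evidence for them.

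**Figure D4:**
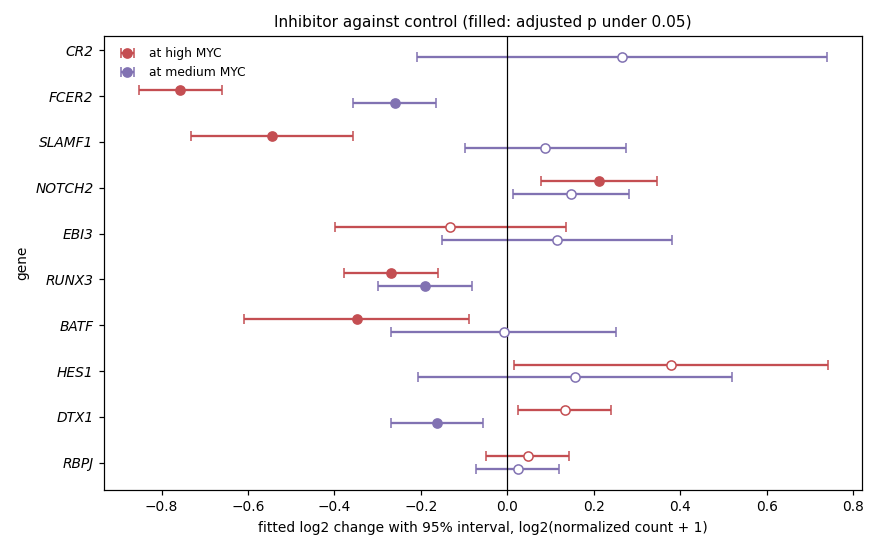
Fitted log2 change with IMP1088 against control at high and at medium MYC for each gene (4 against 4 libraries), with 95% intervals and filled points where the adjusted p is under 0.05; CR2 is drawn at medium MYC only because it had no reads at high MYC. FCER2 and SLAMF1 lie lower at high MYC, and DTX1 lies above 0 at high and below 0 at medium MYC.

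Among proteins that work with the surface receptors, the SLAM family stood beside SLAMF1. All 6 other family members tested (SLAMF6, SLAMF7, CD84, LY9, CD48 and CD244) rose in medium MYC controls, beside 38.9% of all tested genes. SLAMF6 went from 610 ± 29.2 to 2379 ± 48.6 (log2 1.96, limma adjusted p 2.41e-21), CD84 from 414 ± 11.7 to 2524 ± 41.8 (2.60, adjusted p 7.50e-23) and SLAMF7 from 10.7 ± 2.14 to 247 ± 17.5 (4.42, adjusted p 4.37e-17). CD48 rose by only 0.48. CD244 had 0 reads in the 8 high MYC libraries and passed the filter only through the medium MYC libraries, so it could not come out as a fall. LY9, with means of 12.0 in high MYC controls and 5.84 with inhibitor, also relied on the medium MYC libraries to pass. With inhibitor, CD84 fell at high MYC by 0.52 on the log2 scale (adjusted p 1.86e-09) and not at medium MYC (0.09, adjusted p 0.0938), a difference in response of -0.61 (adjusted p 1.17e-07) that resembles that of SLAMF1 in size. CD48 also had a called difference of the same sign (-0.17, adjusted p 0.00493), with a rise at medium MYC (0.13, adjusted p 0.000968), while SLAMF6 had no called difference (-0.07, adjusted p 0.499). LY9 was called lower at high MYC (-1.12, limma adjusted p 0.0223), with an uncalled difference (-0.98, adjusted p 0.263). SLAMF7 was called higher at medium MYC (0.42, adjusted p 0.0384), also with an uncalled difference (-0.27, adjusted p 0.512). The adaptor genes SH2D1A and SH2D1B had at most 2 reads in any library.

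CR1, the sister complement receptor of CR2, also had 0 reads in all high MYC libraries and reached 147 ± 9.10 in medium MYC controls and 121 ± 17.7 with inhibitor. CD81, a membrane protein found in a complex with CR2, fell from 1299 ± 91.4 to 863 ± 64.6 in controls (log2 -0.59, limma adjusted p 1.37e-09). Of the 23 partner genes, 18 were tested: 13 rose and 3 fell between MYC levels in controls, with a median of 1.90. Of all tested genes 38.9% rose and 37.3% fell, with a median of 0.02. CR1, CD244 and RUNX2 had at most 1 read in any high MYC library and passed the filter only through the medium MYC libraries. LY9 had more reads at high MYC but also relied on the medium MYC libraries to pass. With the inhibitor 3 rose and 3 fell at high MYC, and 5 rose and 1 fell at medium MYC. Over all tested genes 10.5% rose and 16.3% fell at high MYC, and 11.7% rose and 14.6% fell at medium MYC. CR1, CD81 and CD48 overlap exons of other genes on the opposite strand, so their values are uncertain.

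The Notch receptors and ligands moved in both directions. Of 8 listed besides NOTCH2, 5 were tested, and 3 rose and 2 fell in medium MYC controls (median 1.38). In that comparison 38.9% of all tested genes were called higher and 37.3% lower. NOTCH1 rose from 1564 ± 115 to 4076 ± 339 (log2 1.38, limma adjusted p 9.01e-16), whereas the ligand genes JAG2 and DLL3 fell by 3.46 and 2.12 on the log2 scale (adjusted p 3.16e-22 and 5.50e-08). JAG1 and NOTCH4, named after their values were seen because they complete the count, had means of 0.377 and 8.12 in high and 49.0 and 29.1 in medium MYC controls. With inhibitor at high MYC their means were 0.218 and 11.6. Both genes would have been filtered out on their high MYC values alone. For JAG1, nearly absent at high MYC, a fall could not have been seen. The count of rises and the median include both genes. With inhibitor, DLL3 at medium MYC was the 1 call in the list (-0.69, adjusted p 0.0369), beside 26.3% of all tested genes at that level. JAG1 and NOTCH4 overlap exons of other genes, as does JAG2.

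Of 15 genes for the processing of Notch receptors, all were tested, and 6 rose and 6 fell between MYC levels in controls (median -0.18). MFNG, a sugar transferase acting on Notch, fell by 2.31 on the log2 scale (limma adjusted p 5.06e-21), while NUMB and the gamma-secretase subunit NCSTN rose by 0.60 and 0.59. The RBPJ cofactors comprised 18 genes with 16 tested, of which 9 rose and 6 fell (median 0.17). Both lists stood beside 38.9% of all tested genes called higher and 37.3% called lower. The largest called changes were those of the acetyltransferase KAT2B (1.80), of RITA1, which exports RBPJ from the nucleus (-1.20), and of the coactivator MAML2 (0.97). SPEN, an RBPJ corepressor, was the cofactor whose inhibitor response differed between MYC levels (0.20, adjusted p 0.00296). NCSTN, NUMB, RITA1, MAML2 and SPEN overlap exons of other genes.

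Tested relatives of HES1 and DTX1 were higher at medium MYC where they changed. Among 13 HES, HEY and Deltex genes and feedback regulators, 8 were tested and 6 rose in controls, with none of the tested genes falling (median 0.65). Of all tested genes 38.9% were called higher and 37.3% lower. HEY2 is among the 6 but passed the filter only through the medium MYC libraries. Below the filter, HES7 averaged 9.06 at high and 2.87 at medium MYC in controls, and HEY1 0.377 and 13.6. These genes are named because of the filter. DTX4 went from 332 ± 12.1 to 2500 ± 60.0 (log2 2.91, limma adjusted p 5.26e-23), the Notch feedback inhibitor NRARP from 190 ± 20.9 to 532 ± 74.4 (1.48, adjusted p 2.48e-12), and DTX3L from 1650.0 ± 62.8 to 2634 ± 66.0 (0.67, adjusted p 6.68e-14). DTX4 and DTX3L overlap exons of other genes on the opposite strand.

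Another 14 genes that EBNA2 is known to induce all rose in medium MYC controls (median 3.93, or 3.92 with 2 genes at the floor set to their bound), and 13 rose with inhibitor. Those 2 genes passed the filter only through the medium MYC libraries. So did LTA, named because of the filter, with means of 7.09 in high MYC controls and 4.40 with inhibitor. Of all tested genes 38.9% were called higher in controls and 39.7% with inhibitor. This list was put together with earlier results of these data known, so its direction is no independent evidence. CCR7, a chemokine receptor, had means of 11.0 ± 1.63 and 8457 ± 415 at high and medium MYC in controls. CDK5R1, an activator of the kinase CDK5, rose from 15.4 ± 2.41 to 571 ± 35.3 (log2 5.14, limma adjusted p 1.21e-18), and the inhibitor moved it up at high MYC (0.49, adjusted p 0.0107) but down at medium MYC (-1.03, adjusted p 7.27e-06), a difference in response of 1.53 (adjusted p 1.72e-05). CFLAR, an inhibitor of caspase-8, moved the opposite way, with -0.18 at high and 0.45 at medium MYC (difference -0.63, adjusted p 8.05e-08), and its exons overlap those of an antisense gene.

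Of 5 B cell factors that help EBNA2 reach its sites, EBF1, IRF4, ETS1 and PAX5 rose between MYC levels in controls and SPI1, the gene of PU.1, was not called (-0.15, limma adjusted p 0.122). With inhibitor in both groups 3 rose and ETS1, which had risen by 0.11 in controls, was called lower at medium MYC (-0.06, adjusted p 0.0352). All 5 were called at high MYC with inhibitor, SPI1 by -0.51, PAX5 by -0.23, EBF1 by -0.20, and IRF4 and ETS1 by 0.22 each. At medium MYC SPI1 (-0.36) and IRF4 (0.30) were called. Of all tested genes, 76.2% were called between MYC levels in controls and 77.5% with inhibitor in both groups. The inhibitor comparisons called 26.8% at high and 26.3% at medium MYC. Because estradiol was added, estrogen receptors and classic estrogen targets were also read: of 7 genes 5 were tested, and 1 rose and 3 fell. ESR1 was not called (-0.04, adjusted p 0.520), GPER1 fell from 2011 ± 109 to 303 ± 24.1 (-2.73, adjusted p 2.01e-20), CTSD fell by 0.66 on the log2 scale, and GREB1 rose by 0.51 (adjusted p 6.78e-05). With inhibitor in both groups GREB1 was not called (0.20, adjusted p 0.0602). Whether reads of the EBNA2 fusion, which holds part of the estrogen receptor, were counted as ESR1 was not tested. PAX5, CTSD and ESR1 overlap exons of other genes.

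For each of the 10 genes the gene with the most similar pattern was sought among 10835 genes with a symbol and a mean of at least 50, as the smallest root mean squared distance between centred log2 values over the 16 libraries. The libraries form 4 groups, so these distances mostly describe the group means. RBPJ lay nearest HNRNPH1 (distance 0.0307), DTX1 nearest ABR (0.0641) and NOTCH2 nearest BTG2 (0.0661). FCER2 lay nearest CDC42EP3 (0.0773), RUNX3 nearest ZFP36L1 (0.0988) and SLAMF1 nearest TRAF1 (0.138), a gene of the tumour necrosis factor receptor signalling chain that changed by 4.28 between MYC levels in controls. BATF lay nearest DTX4 (0.149), HES1 nearest LACTB (0.219), CR2 nearest SYPL2 (0.227) and EBI3 nearest FSCN1 (0.232). CR2 had no reads at high MYC, so its log2 pattern, and with it this distance, depends on the pseudocount of 1.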

How the data were processed

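RNA was extracted with a QIAGEN miRNeasy kit, made into cDNA with a Nugen kit and read on an Illumina HiSeq, per the labels' protocols. The authors deposited normalized counts, a signal per gene and library (58051 identifiers, 16 libraries). STAR 2.5.2a, RSEM 1.2.31, DESeq2 1.16.1 and the build GRCh38 are named in the submitters' processing notes, without their roles; annotation and use of strand are not given in the sources used here. Of the values, 100% were whole multiples of 1 step per library within 0.01 steps, so whole reads were recovered; all columns belonged to samples (0 left out).

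limma 3.58.1 in R 4.3.3 was fitted to log2 of the value plus 1, on 13765 genes with a mean of at least 10, with 4 group means, a mean trend, 12 residual degrees of freedom and Benjamini-Hochberg adjustment, two-sided. Count tests of the recovered reads (DESeq2 1.42.0, edgeR 4.0.16) were alternatives; edgeR called 10556, 10632, 3703 and 3858 genes for MYC level in controls, MYC level with inhibitor, and inhibitor at high and at medium MYC. Other alternatives were scalings, pseudocounts of 0.1 and 10, filters, no trend, the compared groups only, replicate blocks and leaving out each library. The fits were tested on simulated data.

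Symbols matched 56948 identifiers. Named besides the 10 genes were up to 3 called genes per list and comparison with the largest log2 change and a mean of at least 50, any partner gene, and the most similar gene of each. A gene of the marker and partner lists is not reported here and was left out of their sums and counts. The 10 genes and all lists were chosen with earlier results of these data known.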

Additional observations from a re-analysis of the deposited data

Results flagged for a closer look

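In 2 of the 38 gene and group combinations checked, 1 library lay apart from the other 3, with its gap to the nearest of them, as a share of the range of the group, above Dixon's 95% critical value. Medium MYC control replicate 3 had an FCER2 normalized count of 5463 (gap 0.927 of the range), and medium MYC inhibitor replicate 1 had a DTX1 normalized count of 1053 (gap 0.851). Chance gives about 1 such library in 20 groups.

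The log2 response to the inhibitor, high minus medium MYC, differed for FCER2 (-0.50, limma adjusted p 2.37e-05), SLAMF1 (-0.63, adjusted p 0.00228) and DTX1 (0.30, adjusted p 0.0115).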

How the results depend on the processing

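Of 1430 values of the 10 genes under 29 alternative settings, 1394 kept their side of the threshold, 26 lost the call, 10 gained it and 0 called values reversed. Among the uncalled values near 0, 10 changed sign, in 4 results: DTX1 between MYC levels in controls, BATF and RBPJ with inhibitor at medium MYC, and the difference in response of RBPJ. Of 50 gene results, 44 kept their side of the threshold in every setting fitted. The count of the 10 genes called with inhibitor at high MYC was 5, and 3 with only the compared groups in the fit. It ran from 3 to 6 when each library was left out, at 3 without high MYC control replicate 3. The calls lost were those of BATF and NOTCH2 at high and DTX1 at medium MYC. A filter at a mean of 100 left fewer of the 10 genes to test, with 6 called for MYC level in controls and 7 with inhibitor. All counts over all tested genes stayed within 1.5 times.

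Same-numbered libraries did not deviate together (mean correlations -0.07, -0.02, 0.02 and -0.02 over the 4 pairs of groups), so the replicate numbers were not taken as pairing. With the replicate number as a block within each MYC level the 10 genes had 8, 9, 4, 3 and 3 calls for MYC level in controls, MYC level with inhibitor, inhibitor at high MYC, inhibitor at medium MYC and the difference in response. With a block shared by all groups, added after the data were seen, they had 8, 9, 5, 3 and 3. Over all tested genes the block within MYC levels gave 10422, 10599, 3496, 3442 and 1026 calls. Genes of few reads, such as HES1 and BATF at high MYC, limit what differences can be seen.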
